A study of Mus musculus with 8 samples.

Results

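Conjugating enzymes make fat-soluble compounds easier to excrete by joining them to a water-soluble group, and flavin-containing monooxygenases oxidise nitrogen and sulfur in drugs. The set described here is every gene of 4 enzyme families that the array platform names by symbol. They are the glutathione S-transferases (Gst followed by a, k, m, o, p, t or z) and the UDP-glucuronosyltransferases (Ugt1 and Ugt2). The others are the sulfotransferases (Sult) and the flavin-containing monooxygenases (Fmo). The genes were picked by symbol, but the families were chosen with earlier results of these data known. They came to 45 of the 18193 genes with a probe set of their own: 20 Gst, 8 Ugt, 13 Sult and 4 Fmo genes. Each gene was read from the probe set with the highest mean level. Of the 45, 33 lay above the filter on low values and were tested, and 12 did not.

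The tissue is labelled as rear palate of BALB/c newborns at age P1 (postnatal day 1). Pregnant dams received a subcutaneous osmotic pump, which delivers at a steady rate, and the groups were physiological saline and nicotine at 1.5, 3.0 or 4.5 mg/kg/day, with 2 Affymetrix arrays in each. No transgene or mutant allele is named for any group. The labels call the arrays biological replicates and mention 2 pups without saying whether these were pooled, and litters are not given, so p-values measure only the spread between these samples. The deposited values are linear intensities in arbitrary units, and array medians lay between 20.7 and 25.4. Levels below are log2(intensity + 16) after quantile normalization, and the level filter lay at 4.94 on this scale, so a fold against a group near background is understated.

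As background, glucuronosyltransferases of the endoplasmic reticulum attach glucuronic acid from UDP-glucuronic acid to phenols, bilirubin, steroids and amines, and in mammals nicotine and its metabolite cotinine are partly excreted as glucuronides. Sulfotransferases of the cytosol attach sulfate from the donor PAPS. Glutathione transferases join glutathione to electrophiles, and flavin monooxygenases can turn nicotine into its N-oxide. Many of these genes are used most in liver, intestine and kidney, and several glutathione transferases are used widely.

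Because the families are used so strongly in gut and liver, markers of these organs were read on the same arrays. Genes of the intestine (20 measured) had a median log2 level of 9.33 and 7.75 in the saline arrays and of 4.53 to 4.99 in the nicotine arrays. Genes of the stomach (15) lay at 7.86 and 7.66 in saline and at 4.61 to 4.83 under nicotine. Genes of the liver (18) lay at 8.16 and 11.36 in saline. Of the nicotine arrays only 1.5 mg/kg/day replicate 2 was high in liver genes, at 9.5, and the other 5 lay at 4.7 to 4.9. Kidney genes (9) were high in saline replicate 2, at 8.35, against 5.34 in saline replicate 1 and 4.54 to 4.75 under nicotine. Summed intensities of the intestine list were 20663.2 and 9785.1 in saline and 291.1 to 705.9 under nicotine, those of the stomach list 11630.1 and 11898.1 against 268.9 to 697.5. For liver the sums were 11778.5 and 42573.7 in saline, 18814.1 in that nicotine array and 265.1 to 401.2 elsewhere. Albumin (Alb), made by hepatocytes, had an intensity of 3399 and 7002 in saline, 5001 in that same nicotine array and 19.75 to 25.96 in the remaining 5. Genes of oral and skin epithelium (13) lay between 6.14 and 10.71 in every array and skeletal muscle genes (15) between 11.11 and 12.3, while the palate and face patterning genes (13) had medians of 4.97 to 5.38 with 2 to 5 of them above the 60th percentile of all probe sets. Most genes of this patterning list thus lay near background, unlike those of oral and skin epithelium and of skeletal muscle. Heart genes (14) reached 8.07 in nicotine 1.5 replicate 2 and at most 5.15 elsewhere, brown fat genes (11) lay at 6.31 and 5.74 in saline and at 5.76 to 8.5 under nicotine, and nasal and olfactory genes (10) at 4.55 to 4.96. The actin 3'/5' ratio, a sign of RNA integrity, was 1.74 and 1.65 for saline and 0.95 to 1.39 for nicotine. The part of these differences in the results on the enzymes was not tested, and in bulk RNA fewer cells of a type and less RNA per cell cannot be told apart.

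Across the 45 enzymes the median log2 level was 6.49 and 7.47 in the saline arrays, 4.68 and 5.21 at nicotine 1.5, 4.84 and 4.77 at 3.0, and 4.6 and 4.79 at 4.5. Both saline arrays lay above all nicotine arrays. A level above the 60th percentile of all probe sets (5.73) was read for 27 and 31 of the 45 enzymes in saline and for 16 to 21 in a nicotine array. In 1 array or more 33 of the 45 passed that level, against 69% of all genes. Saline replicate 2 was the highest of the 8 arrays for 23 of the 45 genes, and saline replicate 1 for 6. The plot of levels shows that the difference was uneven between classes, with Gstm2 and Gstm5 near the same level throughout and Ugt2b5 and Ugt2b36 close to or under the level filter in the nicotine arrays.

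**Figure D1:**
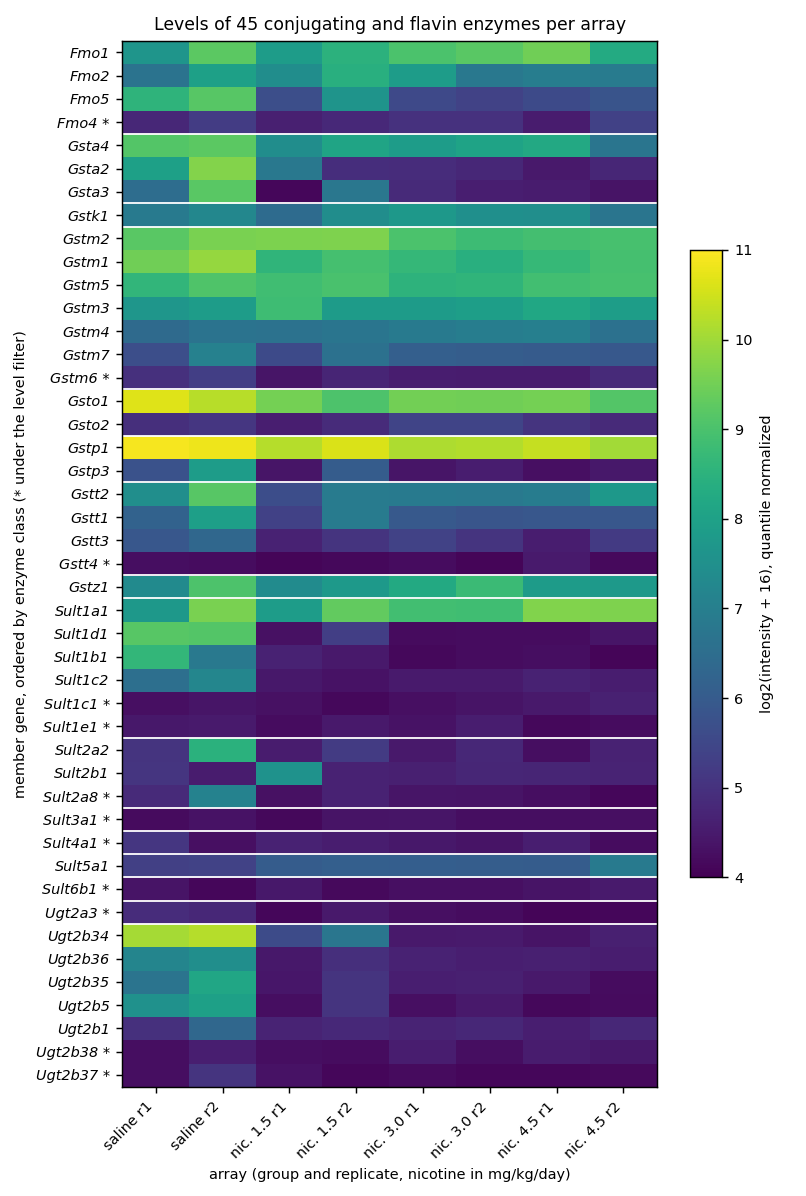
Level of each of the 45 enzymes (vertical axis, grouped by class) in each of the 8 arrays (horizontal axis), as colour on the scale log2(intensity + 16) after quantile normalization. Ugt2b34, Sult1d1 and Sult1b1 stand out in both saline arrays, whereas Gstp1 and Gstm5 lie above the level filter in all 8.

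Under nicotine, as the mean of the 3 doses, 12 of the 33 tested enzymes fell and 0 rose: 4 Ugt2b, 3 Sult1, 4 Gst and 1 Fmo gene. Of all 13592 genes tested 5.4% fell and 4.75% rose, 10.2% in either direction (limma, adjusted p under 0.05). At an unadjusted p under 0.05, 19 enzymes were lower and 1 was higher. The share of all genes at that unadjusted threshold was not counted in any comparison, so such counts have no yardstick. The median log2 fold change of the 33 enzymes was -1.08, against 0.07 over all genes tested. All 6 nicotine arrays lay below both saline arrays for 15 of the 33, as they did for 12.6% of all genes, and above both for 1, Sult5a1, against 16.8% of all genes. Of the 33, 10 had a nicotine mean below the filter and were tested only because saline was high, 6 of the 12 called genes among them, so the count by itself is not evidence about the families. With no level filter 13 of the 45 fell, and 7.87% of all genes were called in either direction. With the filter at the 60th percentile 5 of 20 fell, and 12.3% of all genes were called. Without saline replicate 2 there were 5 calls, and without nicotine 3.0 replicate 2 there were 7, while calls over all genes came to 4.83% and 2.63%. Without saline replicate 1, 13 fell (11% of all genes in either direction), 8 of them among the 12. Gsta3, Gstp3, Gstt2, Sult2a2 and Ugt2b1, all highest in saline replicate 2, were gained, Gsto1 did not pass, and Sult1b1, Sult1c2 and Ugt2b5 dropped under the filter. Saline replicate 2 and nicotine 1.5 replicate 2 had the highest liver medians. Without both, a single saline array was left, and the counts of that fit are not given here.

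**Figure D2:**
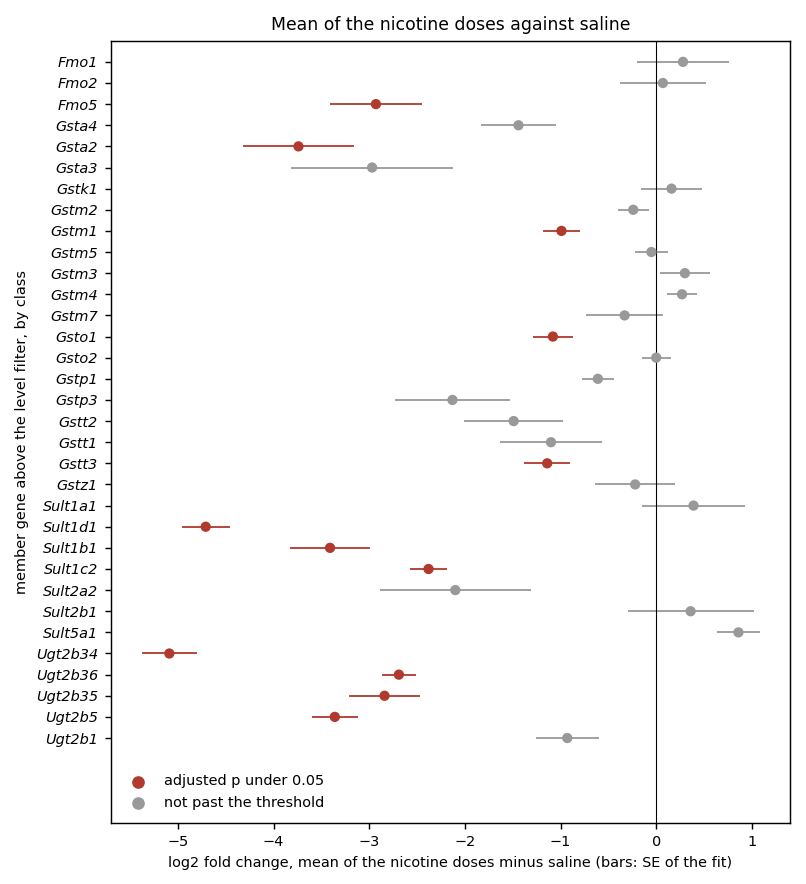
Log2 fold change of the mean of the nicotine doses against saline (horizontal axis) for the 33 tested enzymes (vertical axis, by class), with bars for the SE of the fit and red for an adjusted p under 0.05. The 12 red points all lie left of 0, from -5.09 for Ugt2b34 to -0.99 for Gstm1.

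The tested glucuronosyltransferases were all of the 2B class, and 4 of the 5 fell, against 5.4% of all genes tested. All of the 5 but Ugt2b34 had a nicotine mean below the filter and were tested only because saline was high. This count by itself is therefore no evidence about the class. Ugt2b34, Ugt2b5, Ugt2b35 and Ugt2b36, enzymes of the class that conjugates steroids and drugs in liver, kidney and gut, were the ones that fell, and Ugt2b1 did not pass the test. Ugt2b34 had intensities of 1081 and 1174 in saline, 32 and 97.08 at nicotine 1.5, 6.21 and 6.81 at 3.0, and 4.69 and 8.36 at 4.5. Saline and nicotine arrays were far apart, and both arrays of the lowest dose lay above all 4 arrays of the higher doses. The log2 fold change for the mean of the doses was -5.09 ± 0.29 (SE, limma adjusted p = 0.000337).

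Ugt2b5 read 184.6 and 251.9 in saline, 2.89 and 18.1 at 1.5, 3.68 and 6.33 at 3.0, and 1.57 and 2.42 at 4.5. Every nicotine array lay far below saline, with only nicotine 1.5 replicate 2 above the level filter, and the log2 fold change was -3.36 ± 0.24 (adjusted p = 0.000886). Ugt2b36 read 141.3 and 169.3 in saline, 5.57 and 15.9 at 1.5, 9.5 and 8.1 at 3.0, and 8.33 and 7.38 at 4.5. Its groups did not overlap either, with a log2 fold change of -2.69 ± 0.18 (adjusted p = 0.000633). For Ugt2b35 the saline arrays differed, at 97.04 and 280, while the nicotine arrays read 4.98 and 18.27 at 1.5, 7.93 and 8.57 at 3.0, and 6.02 and 2.8 at 4.5. The log2 fold change of -2.84 ± 0.37 (adjusted p = 0.00869) spans that saline difference. In all 5 tested Ugt2b genes saline replicate 2, the array with the highest liver median, was the highest of the 8, and the higher of the nicotine 1.5 arrays was replicate 2.

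The remaining Ugt2 genes were low. Ugt2b1 read 17.43 and 67.99 in saline, 9.46 and 12.43 at 1.5, 10.05 and 11.17 at 3.0, and 7.8 and 11.17 at 4.5. Its log2 difference of -0.93 ± 0.33 did not pass the threshold (adjusted p = 0.115), although the groups did not overlap. Ugt2b38, read between 2.86 and 7.79, and Ugt2b37, between 1.3 and 17.15, lay under the filter. Ugt2a3 read 15.36 and 11 in saline, 1.44 and 6.15 at 1.5, 3.56 and 2.79 at 3.0, and 1.07 and 1.6 at 4.5, also under the filter. It was called lower when no filter was used.

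The Ugt1 locus makes several enzymes that share their last exons, among them the one that conjugates bilirubin, and no gene of it had a probe set of its own here. The 3 probe sets that name 8 Ugt1a genes together are therefore no members and were not tested. The brightest read 1191 and 1941 in saline, 265.4 and 460.3 at nicotine 1.5, 202.2 and 247.4 at 3.0, and 230.4 and 358.9 at 4.5. In all 3 probe sets both saline arrays lay above all nicotine arrays, and unlike the Ugt2b genes they stayed at 54.2 or more in every nicotine array. The probe set shared by Ugt2a1 and Ugt2a2 read between 1 and 10.73 in all arrays.

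In RefSeq's mouse gene order, 11 of the enzymes lie within a stretch of 13 consecutive protein-coding genes on chromosome 5. The order is Ugt2b34, Ugt2b1, Ugt2b35, Ugt2b36, Ugt2b5, Ugt2b37, Ugt2a3, Ugt2b38, then Ugt2a1 and Ugt2a2, which are no members, and then Sult1b1, Sult1d1 and Sult1e1. Of these 11, 7 were tested and 6 fell under nicotine, against 5.4% of all genes tested, with 5 of the 6 above the filter only through saline. Ugt2b1 did not pass the test, and Ugt2b37, Ugt2a3, Ugt2b38 and Sult1e1 lay under the filter. Sult1e1, the estrogen sulfotransferase, stands next to Sult1d1 and read 6.29 and 6.47 in saline, 2.6 and 6.23 at 1.5, 4.29 and 7.73 at 3.0, and 1.77 and 2.93 at 4.5. It was near background in every array, saline included.

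**Figure D3:**
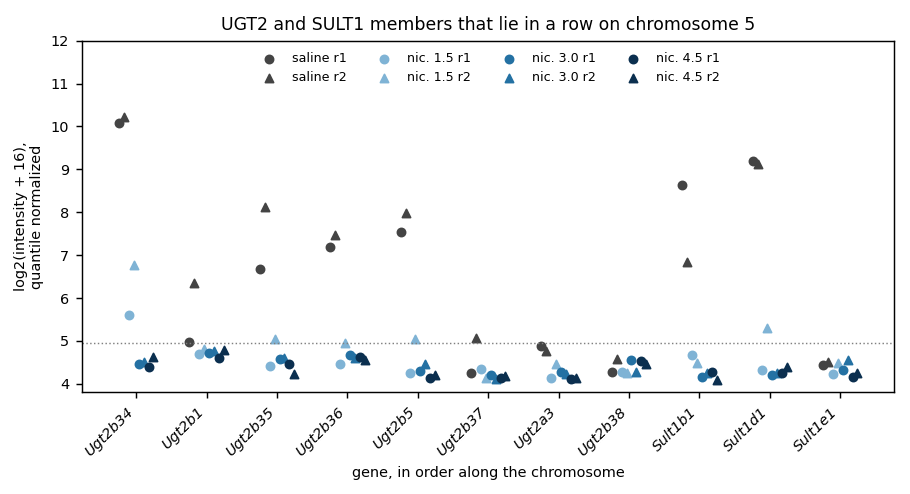
Level (vertical axis, log2(intensity + 16) after quantile normalization) of the 11 member enzymes of the chromosome 5 row in gene order (horizontal axis), 1 point per array with colour for the dose. The dotted line is the level filter at 4.94, and Sult1d1 lies above it in both saline arrays while its neighbour Sult1e1 stays below it in all 8.

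The 250 bases upstream of the RefSeq start (build GRCm38.p6, read 5′ to 3′ on the gene's own strand) are shown for the largest fall in the row, for Sult1d1, which fell, and its neighbour Sult1e1, which was near background throughout, and for Gsta2, the largest fall outside the row. Capitals mark matches to any of 4 motifs: GTTAAT (a core of HNF1 sites), TGACNNNGC (core of the antioxidant response element), GCGTG (core bound by the aryl hydrocarbon receptor) and TATAAA, each searched on both strands, with no overlap between matches in these 4 windows. Ugt2b34 lies at chr5:86906938-86907187, Sult1d1 at chr5:87569007-87569256, Sult1e1 at chr5:87591612-87591861 and Gsta2 at chr9:78347146-78347395, all on the minus strand. The start used for Gsta2 is not its outermost. RefSeq's gene reaches to 78347192, so the last bases of that window, with the GCGTG match, lie within the gene.
Ugt2b34: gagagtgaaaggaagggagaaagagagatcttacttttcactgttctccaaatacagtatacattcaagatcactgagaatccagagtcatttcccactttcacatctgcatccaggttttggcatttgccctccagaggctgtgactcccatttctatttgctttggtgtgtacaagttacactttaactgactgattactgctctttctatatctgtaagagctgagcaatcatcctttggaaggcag
Sult1d1: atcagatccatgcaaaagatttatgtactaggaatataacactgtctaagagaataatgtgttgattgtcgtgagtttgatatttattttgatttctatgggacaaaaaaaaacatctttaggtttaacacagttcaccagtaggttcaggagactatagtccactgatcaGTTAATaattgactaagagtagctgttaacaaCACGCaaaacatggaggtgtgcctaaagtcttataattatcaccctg
Sult1e1: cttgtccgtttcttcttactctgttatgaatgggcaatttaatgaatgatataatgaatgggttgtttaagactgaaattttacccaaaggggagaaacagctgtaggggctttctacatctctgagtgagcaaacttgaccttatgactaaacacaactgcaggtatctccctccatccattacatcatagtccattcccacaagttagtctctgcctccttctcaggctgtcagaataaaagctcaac
Gsta2: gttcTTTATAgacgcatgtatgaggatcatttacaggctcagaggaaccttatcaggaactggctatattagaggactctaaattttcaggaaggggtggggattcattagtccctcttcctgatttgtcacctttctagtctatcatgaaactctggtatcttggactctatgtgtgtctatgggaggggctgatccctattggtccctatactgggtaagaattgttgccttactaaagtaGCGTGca
The windows of Ugt2b34 and Sult1e1 hold none of the motifs. The window of Sult1d1 holds GTTAAT at 79 bases before the start and the opposite strand of GCGTG at 47, and that of Gsta2 holds GCGTG at 7 bases and the opposite strand of TATAAA at 246. Over the 40 enzymes with a RefSeq window, GTTAAT was found in 4 (10%, against 6.43% of all 32851 windows), TGACNNNGC in 3 (7.5% against 10.2%), GCGTG in 8 (20% against 28.2%) and TATAAA in 6 (15% against 12.4%). An enzyme with several windows was counted if any of them matched, while the share of all windows counts single windows, so these shares differ in unit. A match is a description of the letters and not a site.

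Among the sulfotransferases, Sult1d1, Sult1b1 and Sult1c2 fell and the other 4 tested genes did not pass the test. The genes that fell all had a nicotine mean below the filter and were tested only because saline was high. Sult1d1, which sulfates catecholamines and other phenols, had intensities of 573 and 577.3 in saline, 3.64 and 25.3 at nicotine 1.5, 2.43 and 2.98 at 3.0, and 2.82 and 5.13 at 4.5. The saline arrays were alike and all nicotine arrays lay far below them, 5 of the 6 under the level filter and nicotine 1.5 replicate 2 just above it, with a log2 fold change of -4.71 ± 0.25 (adjusted p = 0.000269). Its second probe set gave -4.29.

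Sult1b1, a thyroid hormone and phenol sulfotransferase of gut and liver, read 389.9 and 103.8 in saline, 9.24 and 6.48 at 1.5, 1.96 and 3.06 at 3.0, and 3.21 and 1 at 4.5. Saline replicate 1, which had the higher intestine median, was the higher array here, unlike in the Ugt2b genes. The log2 fold change was -3.41 ± 0.42 (adjusted p = 0.00689). Sult1c2 read 88.71 and 137.8 in saline, 5.29 and 4.26 at 1.5, 6.74 and 6.72 at 3.0, and 9.19 and 7.39 at 4.5. Its nicotine arrays were all at background, with a log2 fold change of -2.38 ± 0.19 (adjusted p = 0.00134).

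Sult1a1, the main phenol sulfotransferase, read 209.9 and 791.4 in saline, 202.1 and 615.7 at 1.5, 475.7 and 450.4 at 3.0, and 837.2 and 764.5 at 4.5. Over the 3 doses the groups overlapped, and the log2 difference was 0.39 ± 0.54 (adjusted p = 0.647). At 4.5 the normalized levels, 9.68 and 9.66, lay just above the higher saline level of 9.58. The log2 difference at that dose was 1.02 ± 0.66 and did not pass (adjusted p = 0.337). Sult5a1 was the only enzyme with all nicotine arrays above saline: it read 27.28 and 25.58 in saline, 48.8 and 57.95 at 1.5, 51.22 and 49.19 at 3.0, and 45.84 and 95.83 at 4.5. Its log2 difference of 0.86 ± 0.22 did not pass the threshold (adjusted p = 0.056), and it passed with an added constant of 1 and without either nicotine 4.5 array.

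The sulfotransferases of the SULT2 class, which act on hydroxysteroids, were each high in 1 array. Sult2a2, an enzyme of liver, read 19.25 and 361.7 in saline, 6.83 and 22.82 at 1.5, 6.34 and 11.17 at 3.0, and 2.87 and 9.4 at 4.5. Saline replicate 2 stood alone, and the log2 difference of -2.10 ± 0.79 did not pass the threshold (adjusted p = 0.129). Sult2a8, under the filter, was also highest in that array, at 127.1 against 14.16 in saline replicate 1. Sult2b1, which makes cholesterol sulfate in the outer skin, read 20.72 and 7.01 in saline, 164.5 and 9.94 at 1.5, 8.34 and 10.95 at 3.0, and 9.9 and 9.58 at 4.5. Its single high array, nicotine 1.5 replicate 1, was also the array with the highest median of oral and skin epithelium genes, 10.71, and the log2 difference was 0.36 ± 0.66 (adjusted p = 0.739). Sult1c1, Sult3a1, Sult4a1 and Sult6b1 lay under the filter, at 1.87 to 8.68, 1.63 to 5.33, 2.98 to 21.1 and 1.38 to 6.6.

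**Figure D4:**
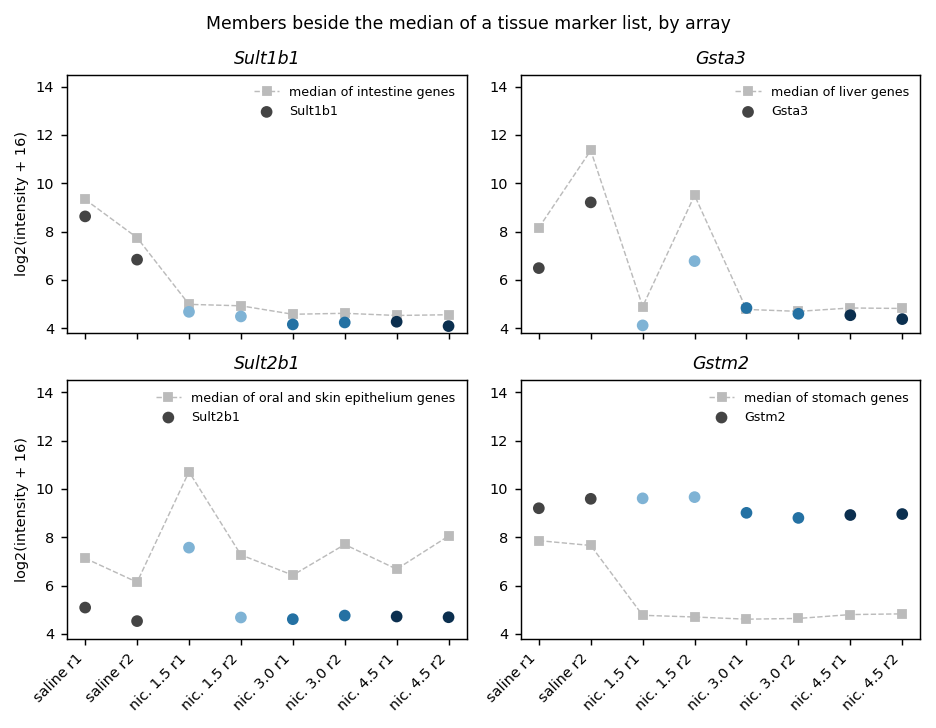
Level of 4 enzymes by array (circles, log2(intensity + 16), shaded by dose) beside the median level of a tissue marker list (grey squares joined by a line), with pairs chosen after the values were seen. Sult1b1 is high with the intestine list, Gsta3 with the liver list and Sult2b1 with oral and skin epithelium in nicotine 1.5 replicate 1, whereas Gstm2 lies between 432.6 and 795.4 in intensity while the stomach list differs between the groups.

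Of the 18 tested glutathione transferases 4 fell: Gsta2, Gstt3, Gsto1 and Gstm1. In the alpha class, which takes up lipid peroxidation products and is abundant in liver and gut, Gsta2 read 252.7 and 854.6 in saline, 90.12 and 15.15 at 1.5, 13.32 and 11.51 at 3.0, and 6.15 and 10.77 at 4.5. All nicotine arrays lay below saline, with a log2 fold change of -3.74 ± 0.58 (adjusted p = 0.0144). Without saline replicate 2 it was -2.87 (adjusted p = 0.0569), and without nicotine 3.0 replicate 2 the adjusted p was 0.0502. A probe set that Gsta1, Gsta2 and Gm3776 share read 298.9 and 499.6 in saline and 9.08 to 49.18 under nicotine, and near-identical paralogs cannot be told apart there.

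Gsta3 read 82.75 and 610.6 in saline, 1.34 and 98.95 at 1.5, 12.47 and 8.27 at 3.0, and 7.06 and 4.79 at 4.5. Nicotine 1.5 replicate 2 lay above saline replicate 1, so the groups overlapped, and the log2 difference of -2.97 ± 0.85 did not pass (adjusted p = 0.0701). Gsta3 was called lower without nicotine 1.5 replicate 2, the nicotine array with liver markers, and without saline replicate 1. Gsta4, which conjugates the lipid aldehyde 4-hydroxynonenal, read 548.2 and 622 in saline, 147.7 and 262.7 at 1.5, 223.6 and 247.9 at 3.0, and 279.7 and 84.29 at 4.5. The groups were apart, yet the log2 difference of -1.44 ± 0.39 did not pass (adjusted p = 0.0592). It was called lower without either nicotine 4.5 array.

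In the mu class 1 of 6 tested genes fell. Gstm1 read 707.5 and 972.8 in saline, 335.8 and 468 at 1.5, 405.5 and 327 at 3.0, and 400.9 and 445.5 at 4.5. Every nicotine array kept a clear signal below saline, with a log2 fold change of -0.99 ± 0.19 (adjusted p = 0.0261). Of its 4 probe sets above the filter 3 gave -0.99 to -0.94 and 1 gave 0.25. The call ended without saline replicate 2 (adjusted p = 0.108), nicotine 3.0 replicate 1 (0.0719), nicotine 3.0 replicate 2 (0.0845) or nicotine 4.5 replicate 1 (0.0615). It also ended with array weights (adjusted p = 0.0596).

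The other tested mu genes overlapped between groups. Gstm2 read 577.7 and 795.4 in saline, 669.2 and 775.5 at 1.5, 516.4 and 432.6 at 3.0, and 480 and 458.4 at 4.5, a log2 difference of -0.24 ± 0.16 (adjusted p = 0.344). Gstm5 read 383 and 555.3 in saline, 399.5 and 483.4 at 1.5, 363.8 and 366.9 at 3.0, and 462.7 and 459.2 at 4.5, a log2 difference of -0.05 ± 0.17 (adjusted p = 0.868). Both were bright on every array. Gstm3, Gstm4 and Gstm7 had log2 differences of 0.30, 0.27 and -0.33 that did not pass (a second Gstm7 probe set gave 0.25), and Gstm6 lay under the filter, at 17.14 and 23.24 in saline and 4.95 to 12.25 under nicotine.

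The pi class holds Gstp1, a widely used enzyme of epithelia. It read 1820 and 1717 in saline, 997 and 1531 at 1.5, 1202 and 1204 at 3.0, and 1436 and 1005 at 4.5. The groups did not overlap, yet the log2 difference of -0.61 ± 0.17 did not pass (adjusted p = 0.0676). Gstp3 read 44.15 and 230.7 in saline, 4.79 and 53.93 at 1.5, 5.21 and 7.8 at 3.0, and 3.46 and 5.76 at 4.5. As with Gsta3, nicotine 1.5 replicate 2 lay above saline replicate 1, and the log2 difference was -2.13 ± 0.60 (adjusted p = 0.0678), and it was called lower without that array, without saline replicate 1 or with the replicate number as a block.

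In the omega class Gsto1, a thiol transferase that also reduces dehydroascorbate, fell: it read 1541 and 1197 in saline, 631.6 and 511.4 at 1.5, 748.8 and 728.6 at 3.0, and 747.9 and 523.8 at 4.5. Here saline replicate 1 was the higher saline array and the nicotine arrays stayed bright, with a log2 fold change of -1.08 ± 0.21 (adjusted p = 0.026). The call ended without saline replicate 1 (adjusted p = 0.0861), nicotine 3.0 replicate 1 (0.0824), nicotine 3.0 replicate 2 (0.0818) or nicotine 4.5 replicate 2 (0.0514). Gsto2 read 17.05 and 18.29 in saline, 7.37 and 13.73 at 1.5, 26.13 and 26.05 at 3.0, and 16.34 and 12.11 at 4.5. Its groups overlapped, with a log2 difference of 0.00 ± 0.15 (adjusted p = 0.995).

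In the theta class, whose enzymes also act on small halogenated compounds, Gstt3 fell. It read 50.01 and 68.7 in saline, 8.85 and 18.49 at 1.5, 24.49 and 16.83 at 3.0, and 7.2 and 18.95 at 4.5, with a log2 fold change of -1.14 ± 0.24 (adjusted p = 0.0336). The groups were apart, but the call ended without saline replicate 2 (adjusted p = 0.14), nicotine 3.0 replicate 1 (0.0823), nicotine 3.0 replicate 2 (0.0953) or nicotine 4.5 replicate 1 (0.0598). Array weights ended it too (adjusted p = 0.0731). Gstt2 read 171.6 and 594.9 in saline, 33.75 and 108.6 at 1.5, 100.7 and 94.28 at 3.0, and 101 and 185.4 at 4.5, a log2 difference of -1.49 ± 0.52 (adjusted p = 0.109). Gstt1 read 65.16 and 245 in saline, 24.76 and 109.3 at 1.5, 44.35 and 39.77 at 3.0, and 40.4 and 40.02 at 4.5, a log2 difference of -1.10 ± 0.53 (adjusted p = 0.213). For Gstt1 and Gstt2 the groups overlapped, and saline replicate 2 was the highest array of all 3 genes. Gstt4 lay under the filter at 1.06 to 6.59.

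The kappa and zeta enzymes did not pass. Gstk1, of mitochondria and peroxisomes, read 113 and 143.1 in saline, 67.41 and 163.2 at 1.5, 199.8 and 162.2 at 3.0, and 155.5 and 84.95 at 4.5, a log2 difference of 0.16 ± 0.32 (adjusted p = 0.764). Gstz1, which isomerises maleylacetoacetate in the breakdown of tyrosine, read 159 and 544.8 in saline, 143.6 and 212.3 at 1.5, 300 and 426 at 3.0, and 209.3 and 188.2 at 4.5, a log2 difference of -0.22 ± 0.42 (adjusted p = 0.743). Groups overlapped for both.

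Of the flavin monooxygenases, Fmo5 fell and Fmo1 and Fmo2 did not pass the test. Fmo5, which in liver and gut oxidises ketones rather than amines, read 365.6 and 604 in saline, 34.32 and 188.2 at 1.5, 29.44 and 24.79 at 3.0, and 29.34 and 37.41 at 4.5. The groups were apart, with nicotine 1.5 replicate 2 the highest nicotine array, and the log2 fold change was -2.93 ± 0.48 (adjusted p = 0.017). The other 2 Fmo5 probe sets above the filter gave -1.5 and -1.32, and the mean over probe sets gave -1.92. The call ended without saline replicate 2 (adjusted p = 0.0794), nicotine 3.0 replicate 1 (0.0564), nicotine 3.0 replicate 2 (0.0581) or nicotine 4.5 replicate 1 (0.0515).

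Fmo1, which can N-oxidise nicotine, read 200.5 and 623.2 in saline, 204.5 and 351.7 at 1.5, 517.5 and 591.8 at 3.0, and 717.1 and 277.4 at 4.5. The groups overlapped, and the log2 difference was 0.28 ± 0.48 (adjusted p = 0.717). Fmo2, the main form of lung in many mammals, read 96.46 and 250.5 in saline, 146 and 330.5 at 1.5, 219.8 and 93.1 at 3.0, and 103.3 and 97.88 at 4.5, a log2 difference of 0.07 ± 0.45 (adjusted p = 0.931). The 4 probe sets of Fmo2 that passed the filter had fold changes of both signs, from -0.79 to 0.63. Lung genes (11) were at background in 3 arrays, both of saline and nicotine 1.5 replicate 1, with medians of 4.67 to 4.99, and had medians of 6.31 to 9.38 elsewhere, and their part in the level of Fmo2 was not tested. Fmo4 lay under the filter at 6.99 to 23.6.

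Each dose was also compared with the same saline arrays, so the dose results share their controls. At nicotine 1.5, 7 of the 33 enzymes fell and 0 rose (1.75% and 0.728% of all genes, 2.48% in either direction). At an unadjusted p under 0.05, 14 were lower and 1 higher, with no share of all genes counted at this or the other doses. The 7 were Ugt2b34, Ugt2b5, Ugt2b35, Ugt2b36, Sult1d1, Sult1b1 and Sult1c2, and no Gst or Fmo gene passed. All of the 7 but Ugt2b34 had a mean over the nicotine arrays below the filter and were tested only because saline was high. The count at each dose is therefore by itself no evidence about the families. Fewer enzymes were called without saline replicate 2, and fewer genes over the whole set too. With an added constant of 1 there were 3 calls (1.15% of all genes). With the filter at the 60th percentile there was 1 (2.71% of all genes). Ugt2b35 (adjusted p = 0.0394) and Sult1b1 (0.0354) were near the threshold at this dose, and each lost its call without any 1 of the 6 nicotine arrays, with adjusted p of 0.0588 to 0.121 and of 0.0771 to 0.0948.

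At nicotine 3.0, 10 enzymes fell and 0 rose (2.38% and 1.35% of all genes, 3.72% in either direction), and 17 were lower and 1 higher at an unadjusted p under 0.05. At nicotine 4.5, 10 fell and 0 rose (3.97% and 2.91% of all genes, 6.87% in either direction), with 17 and 1 at an unadjusted p under 0.05. The 7 genes of the lowest dose were called at both, joined by Gsta2 and Fmo5 at both, by Gstm1 at 3.0 and by Gsto1 at 4.5. Without saline replicate 2 or any 1 array of these doses, fewer enzymes were called at both doses, and fewer genes over the whole set too. Gsta2 and Fmo5 lost their calls at both doses, and Gstm1 at 3.0, without saline replicate 2 or any 1 of the 4 arrays of these doses (adjusted p = 0.0546 to 0.32), and Gsto1 at 4.5 without any 1 array but those of nicotine 1.5 (0.0592 to 0.152). Sult1b1 and Ugt2b35 lost theirs at 3.0 without any 1 of the same 4 arrays (adjusted p = 0.0505 to 0.206) and at 4.5 without either nicotine 4.5 array (0.0837 to 0.0902). Sult1c2 lost its call at 3.0 without either nicotine 3.0 array (0.0555 and 0.0639). Ugt2b34, Ugt2b5, Ugt2b36 and Sult1d1 kept their calls at every dose in each alternative in which they passed the level filter.

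For Ugt2b34 the log2 fold changes were -3.97 ± 0.36 at 1.5, -5.66 at 3.0 and -5.64 at 4.5. For Sult1d1 they were -4.36 ± 0.31, -4.94 and -4.84, and for Gsta2 they were -4.01 ± 0.70 at 3.0 and -4.22 ± 0.70 at 4.5. Between doses 0 of the 33 enzymes and 0% of all genes passed in any of the 3 comparisons (limma), and 3, 1 and 2 enzymes had an unadjusted p under 0.05 in 3.0 against 1.5, 4.5 against 3.0 and 4.5 against 1.5. The difference of Ugt2b34 between 3.0 and 1.5 was -1.69 ± 0.36 (adjusted p = 0.262). In the fit of a slope on dose 1 of 33 enzymes passed, Ugt2b34 with -1.24 ± 0.21 log2 units per mg/kg/day (adjusted p = 0.0475), against 0.515% of all genes with a falling slope and 0.802% in either direction. That call ended without either saline array (adjusted p = 0.162 and 0.136), without either nicotine 3.0 array (0.103 and 0.0984) and without nicotine 4.5 replicate 1 (0.107), whereas 7 enzymes had a falling slope without nicotine 1.5 replicate 1 and 5 without nicotine 1.5 replicate 2. In those fits 3.08% and 5.83% of all genes had a slope past the threshold.

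Genes that serve these enzymes were counted from lists of the pathway, in the mean of the doses and in the same test across all genes, where 5.4% fell and 4.75% rose. Of 12 tested genes of glutathione supply 5 fell and 0 rose, with a median log2 fold change of -0.73. Gclc, the catalytic subunit of the enzyme that limits glutathione synthesis, read 195.9 and 331.4 in saline and 79.46 to 119.6 under nicotine, a log2 fold change of -1.13 ± 0.21 (adjusted p = 0.0259). Gss, glutathione synthetase, had -1.28 ± 0.27 (adjusted p = 0.0348) and Gpx2, the glutathione peroxidase of gut, -1.89 ± 0.27 (adjusted p = 0.0113). The Gclc call ended without saline replicate 2, either nicotine 3.0 array or nicotine 4.5 replicate 1 (highest adjusted p 0.0832), and that of Gss without these or nicotine 4.5 replicate 2 (highest 0.145). The other 2 genes that fell, Gsr and Gclm, lost their calls in 7 of 8 fits with an array left out (highest adjusted p 0.16 and 0.172), so without saline replicate 2 only Gpx2 of the 5 kept its call. Of 6 microsomal and other glutathione transferases 2 fell and 0 rose (median -0.29): Mgst2 with -1.89 ± 0.18 (adjusted p = 0.00242) and Mgst3 with -1.29 ± 0.17 (adjusted p = 0.00869), while Mgst1 had -0.57 ± 0.17 (adjusted p = 0.0752).

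For glucuronidation, 1 of 6 genes of UDP-sugar supply fell and 0 rose (median -0.80), Slc35b1 with -0.66 ± 0.15 (adjusted p = 0.0433), a call that held in 1 of 8 fits with an array left out, the one without nicotine 1.5 replicate 1 (highest adjusted p 0.137). Slc35d1, which carries UDP-glucuronic acid into the endoplasmic reticulum, had -0.94 ± 0.26 and did not pass (adjusted p = 0.0627). For sulfation, 1 of 9 genes fell and 0 rose (median -0.46). This was Bpnt1, which clears the PAP left by sulfotransferases, at 598 and 417.8 in saline and 90.07 to 199.1 under nicotine, with -1.77 ± 0.20 (adjusted p = 0.00545). Papss1, which makes the donor PAPS, had -0.85 ± 0.21 (adjusted p = 0.0501).

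Of 18 other conjugating and hydrolysing enzymes 2 fell and 0 rose (median -0.42). Nqo1, a quinone reductase, read 540.6 and 412.1 in saline and 20.92 to 44.24 under nicotine, with -3.32 ± 0.21 (adjusted p = 0.000524), and Akr1b8 had -0.82 ± 0.14 (adjusted p = 0.0182), with its call lost without saline replicate 1 or either nicotine 3.0 array (highest adjusted p 0.0719). Of 12 transporters 4 fell and 1 rose (median -1.18). Abcc2, which exports glucuronide and glutathione conjugates, read 197.4 and 135.1 in saline and 2.55 to 17.38 under nicotine, with -2.98 ± 0.21 (adjusted p = 0.000886). Abcg2 had -1.11 ± 0.16 (adjusted p = 0.0117) and lost its call without saline replicate 2 (0.0506), and Abcc3 had -1.25 ± 0.21 (adjusted p = 0.0194) and lost it without that array or either nicotine 3.0 array (highest 0.0698). Abcb1a, the other gene that fell, lost its call in 4 of 8 such fits (highest adjusted p 0.078). Slco2b1, named after its value was seen, rose by 0.94 ± 0.21 (adjusted p = 0.0383), and its call held only without saline replicate 1 or nicotine 1.5 replicate 1 (highest adjusted p 0.135 otherwise).

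Of 12 regulators of these genes 2 fell and 0 rose (median -0.33). Hnf4a, a nuclear receptor of liver and gut epithelium, read 695.7 and 825.7 in saline, 20.75 and 151.1 at 1.5, 3.02 and 4.32 at 3.0, and 3.21 and 2.24 at 4.5, with -4.62 ± 0.49 (adjusted p = 0.0039). Nr1h4, the bile acid receptor, read 220.5 and 119.4 in saline and 1.86 to 18.1 under nicotine, with -2.87 ± 0.29 (adjusted p = 0.00314). Nfe2l2, the factor that acts on antioxidant response elements, had -0.44 ± 0.17 and did not pass (adjusted p = 0.129). For Hnf4a and Nr1h4 both saline arrays lay above all nicotine arrays, as for the medians of the intestine and stomach lists. The liver list was also high in nicotine 1.5 replicate 2. That array was the highest nicotine array of both regulators too, at 151.1 for Hnf4a and 18.1 for Nr1h4. The part of intestine, stomach and liver in these levels was not tested. Gpx2, Mgst2, Mgst3, Bpnt1, Nqo1, Abcc2, Hnf4a and Nr1h4 kept their calls with each array left out in turn, wherever they passed the level filter.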

How the data were processed

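The deposited values are linear intensities of 45101 probe sets on 8 arrays, summarized by the authors (method not given in the sources used here). Gene symbols came from the platform annotation, which can be old, and 45 of 45 members matched RefSeq's gene table. Intensities were taken as log2(intensity + 16) and quantile normalized, since array medians differed by 0.17. Each gene kept the probe set with the highest mean. Genes with a mean below the 40th percentile over all probe sets were left out, and 13592 genes (74.7%) were tested in 1 fit over all 8 arrays with limma 3.58.1 in R 4.3.3 (lmFit, eBayes; 4 residual and 6.85 total degrees of freedom), two-sided, with Benjamini-Hochberg adjustment over all genes and a threshold of 0.05. Errors are standard errors of the fit. The procedure was tested on simulated data. The number of arrays limits the precision.

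Named with values in every array are each member that passed in any comparison with saline or in the slope, the 2 brightest others of each class (a tie in the Sult1 class is given in both), and Fmo1; 1 further gene is not reported here. From each pathway list up to 3 genes with the smallest p are named. The members and all 18 lists were chosen with earlier results of these data known. The 18 alternatives changed normalization, the added constant, the filter, the probe set rule, array weights, the replicate block and the arrays used.

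Same-numbered arrays of different groups had deviations that correlated at r = -0.22 to 0.33 over 6 pairs of groups, so the numbers were not taken to pair arrays.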

Additional observations from a re-analysis of the deposited data

How the results depend on the processing

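With the level filter at the 60th percentile the counts of enzymes called were 5 for the mean of the doses, 1 at nicotine 1.5, 4 at 3.0, 4 at 4.5 and 2 for the slope, with 20 and not 33 enzymes tested. Over all genes 12.3%, 2.71%, 3.74%, 7.98% and 2.28% were called, in the same order. For the mean of the doses all 7 lost calls were of genes under that filter. An added constant of 1 gave 3 at 1.5, 6 at 3.0, 6 at 4.5 and 2 for the slope. The shares of all genes called were then 1.15%, 2.69%, 5.48% and 1.22%. The slope call was lost (0 enzymes by limma) with array medians subtracted or an added constant of 64. It was also lost with no level filter, the mean over probe sets or array weights. In these fits only 0.0055% to 0.0147% of all genes had a slope past the threshold, against 0.802% in the main fit. The cause was not tested. Leaving out each array in turn gave 5 to 14 calls for the mean of the doses, 4 to 9 at 1.5, 4 to 11 at 3.0, 4 to 11 at 4.5 and 0 to 7 for the slope. Calls over all genes also varied with the array left out, in every one of these comparisons. Each such fit left a single array in 1 group. The ranges are therefore by themselves no evidence about the enzymes. The replicate numbers did not pair the arrays. With the replicate block the counts were 13, 6, 8, 10 and 0, against 6.25%, 1.16%, 2.05%, 3.84% and 0% of all genes. Of 40 called fold changes followed through the 18 alternatives, 21 kept their call wherever the gene passed the filter and 0 reversed. Levels near background have no order, and groups of 2 arrays left no test for single outlying arrays.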
